A study of Homo sapiens with 30 samples.

Results

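The 10 immediate early genes described here were followed through the differentiation of H7 human embryonic stem cells into cardiomyocytes: FOS, FOSB, JUN, JUNB, EGR1, NR4A1, NR4A3, IER2, DUSP1 and KLF6. They were taken by exact gene symbol, and all 10 were found among the 41495 rows of the time-course table, while 7 were found among the 4648 rows of the D3 sort table and 8 among the 4825 rows of the D4 sort table. RNA depleted of ribosomal RNA was sequenced from 15 groups of 2 libraries. The time course has 11 groups: undifferentiated stem cells (hESC), days 1, 2, 3, 4, 5, 6, 8, 10 and 15 (D1 to D15), and cardiomyocytes of day 31 purified on Percoll density gradients. Stem cells were dissociated with Accutase, seeded with the ROCK inhibitor Y27632 and grown in E8 medium. Every later group first received the GSK3 inhibitor CHIR99021 at 12 µM for 24 hours, in RPMI1640 with B27 lacking insulin, and the WNT secretion inhibitor IWP4 at 5 µM was given for the next 2 days, before B27 with insulin. The other 4 groups were sorted by flow cytometry. PMESO cells are ROR2-positive cells of day 3, with ROR2-negative cells of the same day as counterpart. CMESO cells are PDGFRa-positive cells among the ROR2-positive cells of day 4, with PDGFRa-negative, ROR2-positive cells as counterpart. All groups derive from 1 cell line, and no cell sorting or gradient is given for hESC and D1 to D15.

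Immediate early genes are transcribed within minutes of a stimulus such as serum, a growth factor, stretch or stress, without new protein synthesis, and their messenger RNAs decay quickly. MAP kinases, acting through SRF with its ternary complex partners and through CREB, switch on most of them. FOS and FOSB proteins pair with JUN and JUNB into the AP-1 transcription factor, EGR1 is a zinc finger factor, and NR4A1 and NR4A3 are nuclear receptors without a known physiological ligand. DUSP1 is a phosphatase that switches MAP kinases off again, KLF6 is a Krüppel-like zinc finger factor, and IER2 is a small nuclear protein. In heart muscle cells this response is a classical answer to stretch and hypertrophic hormones, and in any tissue it can be set off by handling and dissociation of cells.

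The stretch of DNA just upstream of these genes shows the elements through which such signals are read, so 6 of the promoters are printed here. The RefSeq table of promoters (build GRCh38.p14, 250 bases before to 50 bases after each start) matched all 10 genes, NR4A1 with 2 starts. The windows cover the 180 bases before the start, 5′ to 3′ on the strand of the gene. Capitals mark, on either strand, TGACGT, the core of the cAMP response element that CREB binds, TGACATCA, the AP-1-like element of the JUN promoter, and the CArG box of SRF, an element of CC and GG with 6 A or T between. The full cAMP response element TGACGTCA contains the core and overlaps it. FOS lies at chr14:75278648-75278827 and EGR1 at chr5:138465299-138465478, both on the plus strand. JUN lies at chr1:58784048-58784227 and DUSP1 at chr5:172771196-172771375, both on the minus strand. FOSB lies at chr19:45467816-45467995 and NR4A3 at chr9:99821705-99821884, both on the plus strand.
FOS: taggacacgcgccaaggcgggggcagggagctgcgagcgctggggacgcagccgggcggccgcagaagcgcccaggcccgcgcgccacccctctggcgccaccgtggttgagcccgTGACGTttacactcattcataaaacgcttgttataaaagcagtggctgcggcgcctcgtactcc
EGR1: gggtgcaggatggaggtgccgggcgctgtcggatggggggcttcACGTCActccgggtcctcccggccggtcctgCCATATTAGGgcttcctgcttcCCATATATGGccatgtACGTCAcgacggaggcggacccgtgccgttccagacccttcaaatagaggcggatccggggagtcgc
JUN: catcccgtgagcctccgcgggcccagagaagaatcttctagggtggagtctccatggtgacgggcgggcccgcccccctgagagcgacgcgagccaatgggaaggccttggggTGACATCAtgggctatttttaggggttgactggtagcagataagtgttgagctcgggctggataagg
DUSP1: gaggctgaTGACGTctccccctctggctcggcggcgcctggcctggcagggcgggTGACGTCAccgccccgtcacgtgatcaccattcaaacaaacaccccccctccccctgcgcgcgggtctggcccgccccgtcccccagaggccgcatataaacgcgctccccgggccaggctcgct
FOSB: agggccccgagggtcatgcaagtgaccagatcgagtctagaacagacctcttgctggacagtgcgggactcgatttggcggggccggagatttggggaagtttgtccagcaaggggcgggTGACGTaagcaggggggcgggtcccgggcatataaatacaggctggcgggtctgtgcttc
NR4A3: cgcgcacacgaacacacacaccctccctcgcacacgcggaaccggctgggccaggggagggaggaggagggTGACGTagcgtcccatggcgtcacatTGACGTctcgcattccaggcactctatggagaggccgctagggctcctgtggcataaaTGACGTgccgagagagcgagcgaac

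Of the 10 genes, 5 (FOS, FOSB, EGR1, NR4A3 and DUSP1) had TGACGT in the full window, against 7.98% of the 35116 promoter sequences of the table. Positions give the first base of a match, counted back from the start. TGACGT stood at -64 in FOS and at -60 in FOSB, and NR4A3 held it 3 times, at -109, -83 and -25. DUSP1 was the gene with the full TGACGTCA, at -125, which 1.85% of all promoter sequences hold. EGR1 had 2 CArG boxes, at -105 and -83, an element in 1.29% of the sequences, and none of the other 9 genes had an exact match in this window. TGACATCA occurred in JUN at -67 and in KLF6 at -172, against 2.61% of the sequences. The TATA box core TATAA occurred in FOS, FOSB, JUNB and DUSP1, against 20.4%, and the classical AP-1 site TGACTCA in none of the 10, against 4.95%. A match in these windows describes letters, not binding.

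The time-course table gives 1 FPKM value per gene and time point (fragments per length of transcript and number of mapped fragments, a level scaled for gene length), where 2 libraries were sequenced, and how these were combined is not given. No spread between libraries can therefore be given and no test was made over time. A gene is called 2-fold higher or lower where log2(FPKM + 1) differed by at least 1, a scale that understates differences of low values, and the background consists of the 21711 genes that reached 1 FPKM in some column, all 10 immediate early genes among them. The depth behind each value is unknown, since the files give no counts. The D15 column ran low as a whole and the D1 column high: the median ratio of protein-coding genes to their own geometric mean over the columns was 0.754 at D15 (-0.41 in log2), 1.18 at D1 (0.24), and 0.968 to 1.13 in the others. Dividing by these ratios left every count of 2-fold immediate early genes between neighbouring time points within 1.5 times its value. As a check of the labels, 5 pluripotency markers summed to 2598 FPKM in hESC against 4.90 in cardiomyocytes, and 6 cardiomyocyte markers to 17.9 against 11220. Values are of bulk RNA, in which fewer cells of a type and less RNA per cell cannot be told apart.

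Over the whole course all 10 genes were lower at D1 and D2 than in hESC, and most were highest in cardiomyocytes. Their summed level was 427 FPKM in hESC, 97.3 at D1, 116 at D2, 264 at D3, 464 at D4, 482 at D5, 359 at D6, 458 at D8, 553 at D10, 296 at D15 and 1042 in cardiomyocytes. Of the 10, 7 were highest in cardiomyocytes and 3 (IER2, DUSP1 and KLF6) in hESC. The lowest value lay at D1 for 5 genes and at D2 for 3, with IER2 lowest at D15 and KLF6 at D6. By comparison, 17.1% of the background genes were highest in cardiomyocytes and 17.5% in hESC, while 14.2% were lowest at D1 and 8.88% at D2. The distance between the highest and lowest time points had a median of 4.02 on the log2(FPKM + 1) scale over the 10 genes, and of 1.57 over the background.

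**Figure D1:**
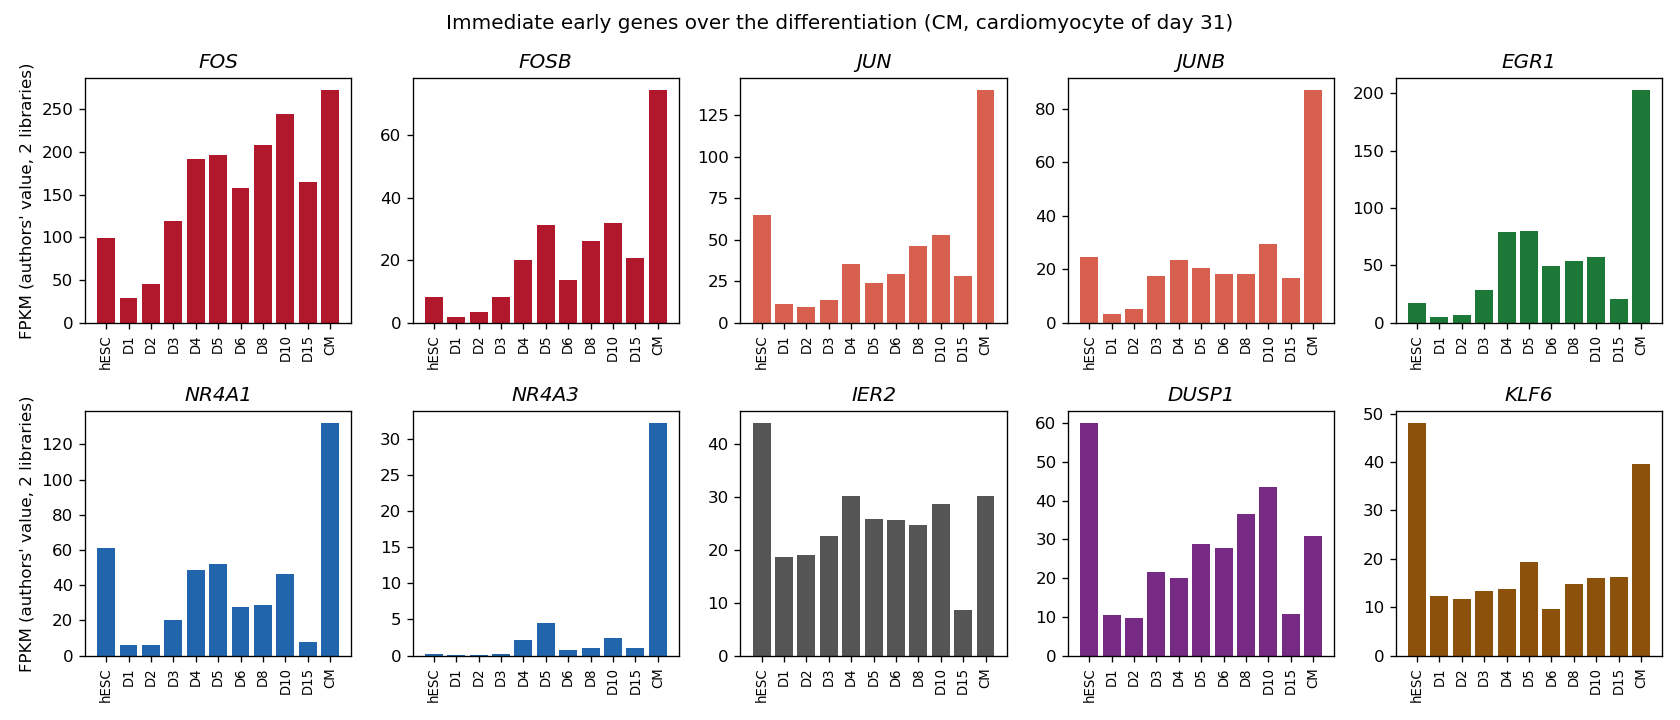
FPKM of each of the 10 immediate early genes (vertical axes from 0, 1 scale per gene) at the 11 time points, each bar the authors' single value for the group, with CM for cardiomyocytes of day 31. All bars of D1 and D2 are low against hESC, and the cardiomyocyte bar is the highest for 7 genes, from 32.2 FPKM for NR4A3 to 272 for FOS.

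FOS, the founding member of the FOS family, had the highest level of the 10 genes in each of the 11 columns. It stood at 99.2 FPKM in hESC, 28.8 at D1, 45.0 at D2, 119 at D3, 191 at D4, 197 at D5, 157 at D6, 209 at D8, 245 at D10, 165 at D15 and 272 in cardiomyocytes. From D3 on every column lay above the stem cell value. FOSB, its close relative, stood at 8.28, 1.77, 3.42, 8.09, 20.1, 31.1, 13.7, 26.0, 31.9, 20.7 and 74.4 FPKM in the same order. The ratio of the FOS to the FOSB level was 16.3 at D1, 6.32 at D5, 11.5 at D6, 7.66 at D10, 7.97 at D15 and 3.66 in cardiomyocytes. FOSB thus made up its largest part of the pair in cardiomyocytes, without a steady course before.

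JUN, the main partner of FOS in AP-1, had its high values at the ends. Its levels, again from hESC to cardiomyocytes, were 64.8, 11.2, 9.42, 13.6, 35.1, 23.9, 29.1, 46.0, 52.9, 28.3 and 140 FPKM, and only cardiomyocytes exceeded hESC. JUNB, a JUN relative that is a weaker activator, stood at 24.6, 3.05, 5.18, 17.3, 23.2, 20.4, 18.3, 18.1, 29.4, 16.8 and 86.9. JUNB was above JUN at D3 (ratio of JUN to JUNB 0.787) and below it in the other 10 columns, with the largest ratio at D1 (3.67). The FOS and FOSB levels together exceeded those of JUN and JUNB in all columns. The sums were 107 against 89.5 FPKM in hESC, 30.5 against 14.2 at D1, 127 against 30.8 at D3 and 347 against 227 in cardiomyocytes.

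EGR1, a direct target of the SRF pathway, stood at 17.3 FPKM in hESC, 5.07 at D1, 6.52 at D2, 28.7 at D3, 79.1 at D4, 80.0 at D5, 49.3 at D6, 53.3 at D8, 57.0 at D10, 20.3 at D15 and 203 in cardiomyocytes. It was thus above the stem cell level from D3 on, with a plateau at D4 and D5. NR4A1 stood at 60.9, 6.05, 5.88, 20.3, 48.8, 52.0, 27.7, 28.6, 46.2, 7.80 and 132 FPKM in the same order. Its D15 value was close to those of D1 and D2, and its cardiomyocyte value was the highest. NR4A3 was the lowest of the 10 genes up to D15, at 0.280, 0.0558, 0.115, 0.239, 2.19, 4.48, 0.828, 1.09, 2.44 and 1.09 FPKM, and stood at 32.2 in cardiomyocytes. Its values under 1 FPKM rest on few fragments, so ratios among them are uncertain.

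IER2, DUSP1 and KLF6 were highest in hESC, while their lowest values lay at different time points (D15, D2 and D6). IER2 stood at 44.0 FPKM in hESC, 18.7 at D1, 18.9 at D2, 22.5 at D3, 30.1 at D4, 25.8 at D5, 25.7 at D6, 24.7 at D8, 28.6 at D10, 8.61 at D15 and 30.2 in cardiomyocytes. Apart from hESC and D15 it stayed within 18.7 to 30.2 FPKM. DUSP1 stood at 60.0, 10.5, 9.79, 21.7, 19.95, 28.7, 27.6, 36.6, 43.4, 10.8 and 30.9 FPKM, with its lowest value at D2 and its highest after hESC at D10. KLF6 stood at 48.1, 12.2, 11.7, 13.4, 13.8, 19.3, 9.73, 14.9, 16.0, 16.3 and 39.6. It stayed within 9.73 to 19.3 FPKM from D1 to D15, and alone of the 10 was no lower at D15 than at D10. In GENCODE 29, 30.8% of the exon bases of IER2, 14.2% of JUNB and 10.3% of NR4A1 also lie in an exon on the opposite strand, and the strand setting is not given, so reads of these pairs cannot be told apart there.

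The first step compares D1 with hESC, which differ in medium (RPMI1640 with B27 against E8) as well as in CHIR99021, and these cannot be told apart. At D1 all 10 lay below hESC, and 9 were 2-fold lower, where 11.1% of the background was 2-fold lower. The median difference in log2(FPKM + 1) was -1.82 over the 10 genes and 0.00 over the background. NR4A1 had the largest difference (-3.13), followed by JUNB (-2.66), JUN (-2.43) and DUSP1 (-2.41), while NR4A3, already under 1 FPKM in hESC, was at -0.28. Of 39 other rapid response genes, 20 were 2-fold lower and 1 higher at this step (median -1.06), led by DUSP2, a nuclear MAP kinase phosphatase (88.3 against 0.647 FPKM), MAFF, a small MAF factor (82.5 against 3.59), GADD45B (72.3 against 7.20) and BTG2, an antiproliferative gene (21.4 against 1.71). The step coincided with lower heat shock genes (6 of 10 lower, 0 higher, median -1.97) and lower genes of the integrated stress response (6 of 10 lower, 0 higher, median -1.80). ATF3 (-3.02) and PPP1R15A (-3.00) are counted both in the integrated stress response and among the other rapid response genes. HSPA6, a strictly stress-inducible chaperone, went from 33.7 FPKM in the stem cells to 0.304 a day later. Their part in the level of the immediate early genes in hESC was not tested. Among 26 upstream kinases and factors of the response, 1 was 2-fold lower (ELK4, -1.19) and 1 higher (CREM, 1.43), with a median of -0.15.

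From D1 to D2 none of the 10 was 2-fold different, against 5.00% of the background in either direction, and their median difference was 0.05. At D3 all 10 lay above D2 and 6 (FOS, FOSB, JUNB, EGR1, NR4A1 and DUSP1) were 2-fold higher, against 3.10% of the background. EGR1 had the largest difference (1.98), then NR4A1 (1.63) and JUNB (1.56). JUN (0.49), IER2 (0.24), KLF6 (0.18) and NR4A3 (0.15) stayed under 2-fold. Of the 39 other rapid response genes 5 were higher and 3 lower, against 3.10% and 5.04% of the background. ZFP36, which degrades AU-rich messenger RNAs, was among the higher (1.58 to 6.05 FPKM) and IER3 among the lower (47.6 to 19.9).

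At D4, 5 genes (FOSB, JUN, EGR1, NR4A1 and NR4A3) were 2-fold higher than at D3, against 6.79% of the background, and the median over the 10 was 0.95. EGR1 (1.43), NR4A3 (1.36) and JUN (1.31) led, and DUSP1 (-0.11) was the one gene below its D3 value. EGR2 and EGR3, the relatives of EGR1, went from 2.47 to 13.8 FPKM and from 2.25 to 11.7. Of the 39 other rapid response genes 11 were higher and 1 lower, and of the 26 upstream kinases and factors 0 were higher and 3 lower. Of the background 6.79% was higher and 6.30% lower at this step. By D5 none of the 10 was 2-fold different from D4, against 4.94% of the background in either direction. At D6, FOSB (-1.13) and NR4A3 (-1.58) were 2-fold lower than at D5, against 6.19% of the background, and 9 of the 10 lay below their D5 value, with JUN (0.27) the exception. No gene was 2-fold different from D6 to D8 (2.01% of the background in either direction) or from D8 to D10 (2.27%), although all 10 were above their D8 value at D10, by 0.09 to 0.72. At D10, 8 genes were 2-fold higher than at D1, against 12.3% of the background, all but IER2 (0.59) and KLF6 (0.37).

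**Figure D2:**
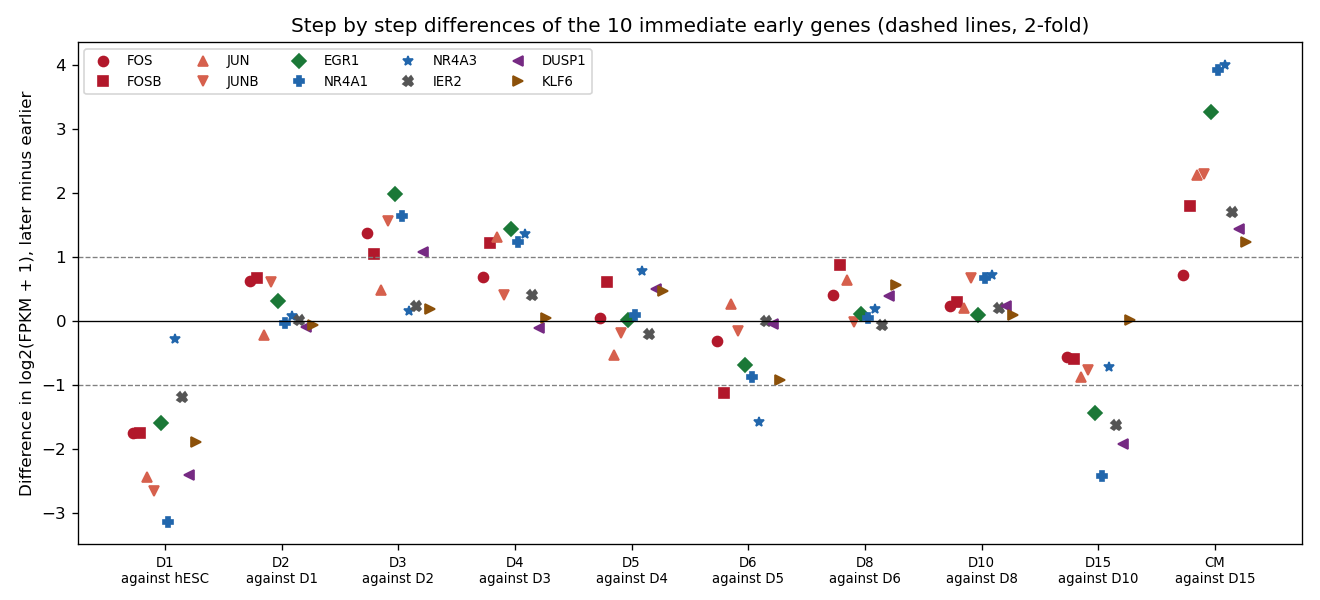
Difference in log2(FPKM + 1) between neighbouring time points (vertical axis) for each of the 10 genes, with dashed lines at 2-fold. At D1, 9 genes lie under the lower line, and 6 and then 5 above the upper line at D3 and D4, and 9 above it in cardiomyocytes.

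At D15, 4 genes were 2-fold lower than at D10, against 9.51% of the background: NR4A1 (-2.42), DUSP1 (-1.92), IER2 (-1.62) and EGR1 (-1.44). The median difference was -0.83 over the 10 genes and -0.04 over the background. The AP-1 genes had smaller differences, from -0.56 for FOS to -0.88 for JUN, and KLF6 stood at 0.02. The same 4 genes were 2-fold lower at D15 when D8 took the place of D10. After rescaling for the low D15 column these 4 differences were -2.09, -1.57, -1.29 and -1.08, and KLF6 stood at 0.38. Of the 39 other rapid response genes 10 were lower and 2 higher, with EGR2 at 9.51 and 0.737 FPKM and RHOB, a small GTPase, at 48.1 and 8.64. Of the 26 upstream kinases and factors 6 were lower and 0 higher, with a median of -0.72. Of 10 heat shock genes 7 were lower and 1 higher. Counts and medians of these lists, here and for day 31 against D15, were not rescaled for the low D15 column (-0.41 in log2). They therefore include its low scale. Unpurified D15 cells also differed in makeup: the summed level of 6 stromal markers was 864 FPKM at D10 and 3059 at D15, with none of the 6 at 0, and its part in the result was not tested.

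The cardiomyocytes of day 31 stood out over the rest of the course. Compared with D15, 9 genes were 2-fold higher, against 7.23% of the background, and the median difference was 2.03 for the 10 genes and 0.12 for the background. The nuclear receptors NR4A3 (3.99) and NR4A1 (3.92) and EGR1 (3.26) differed most, then JUNB (2.30), JUN (2.27) and FOSB (1.80), and FOS, with 0.72, stayed under 2-fold. After rescaling KLF6 was also under 2-fold, with 0.89 in place of 1.23. Against D10 in place of D15, 7 genes were 2-fold higher, where 8.13% of the background was, with NR4A3 at 3.27 and EGR1 at 1.81, and IER2 (0.08), FOS (0.16) and DUSP1 (-0.48) were not. The other rapid response genes lay on the same side, with 27 of 39 2-fold higher than at D15 and 0 lower (median 1.35). ATF3, a stress-induced partner of AP-1, went from 6.09 FPKM at D15 to 158 on day 31, EGR2 from 0.737 to 20.2, EGR3 from 2.26 to 30.0, and DUSP5, a phosphatase specific for ERK, from 4.16 to 41.2. Against D10, 18 of the 39 were higher and 2 lower. SRF, the factor of the CArG box, went from 11.0 to 37.0 FPKM between D15 and day 31, and 4 of 26 upstream kinases and factors were 2-fold higher than at D15 and 0 against D10.

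The day 31 cells differ from D15 both in age and in Percoll purification, and these cannot be told apart. Between D15 and day 31 the summed level of 6 cardiomyocyte markers went from 7388 to 11220 FPKM, that of 6 stromal markers from 3059 to 945 and that of 4 detected endothelial markers from 11.3 to 2.53. The 4 blood markers summed to 0.934 FPKM in cardiomyocytes, with HBB at 0, and no stromal or measured endothelial marker was at 0. Their part in the result was not tested. Heat shock genes were also higher than at D15 (7 of 10 higher, 0 lower) but not against D10 (1 of 10 higher). Among the 10 genes of the integrated stress response 2 were higher and 2 lower than at D15. The 2 higher, ATF3 (4.49) and PPP1R15A (1.10), are also counted among the other rapid response genes.

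The last comparison in time sets both ends of the course against each other. In cardiomyocytes 7 genes were 2-fold higher than in hESC, against 18.7% of the background: NR4A3 (4.70), EGR1 (3.48), FOSB (3.02), JUNB (1.78), FOS (1.45), NR4A1 (1.11) and JUN (1.10). DUSP1 (-0.94), IER2 (-0.53) and KLF6 (-0.27) lay on the other side, under 2-fold. Heat shock and integrated stress response genes were on the low side in cardiomyocytes, with 9 of 10 lower in each list and 1 and 0 higher. Of the background 16.9% was lower. Thus GDF15, a stress cytokine, had 94.3 FPKM in stem cells and 0.513 on day 31, and DDIT3, a stress-induced factor, 682 and 13.9, while EGR3 had 2.86 and 30.0. Among the 39 other rapid response genes, 15 were higher and 7 lower, against 18.7% and 16.9% of the background, so the share of lower genes was near that of the background. DUSP2 (88.3 and 5.44) and MAFF (82.5 and 7.36) were lower in cardiomyocytes, and SOCS3, a feedback inhibitor of cytokine signalling (8.24 and 81.8), was higher.

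**Figure D3:**
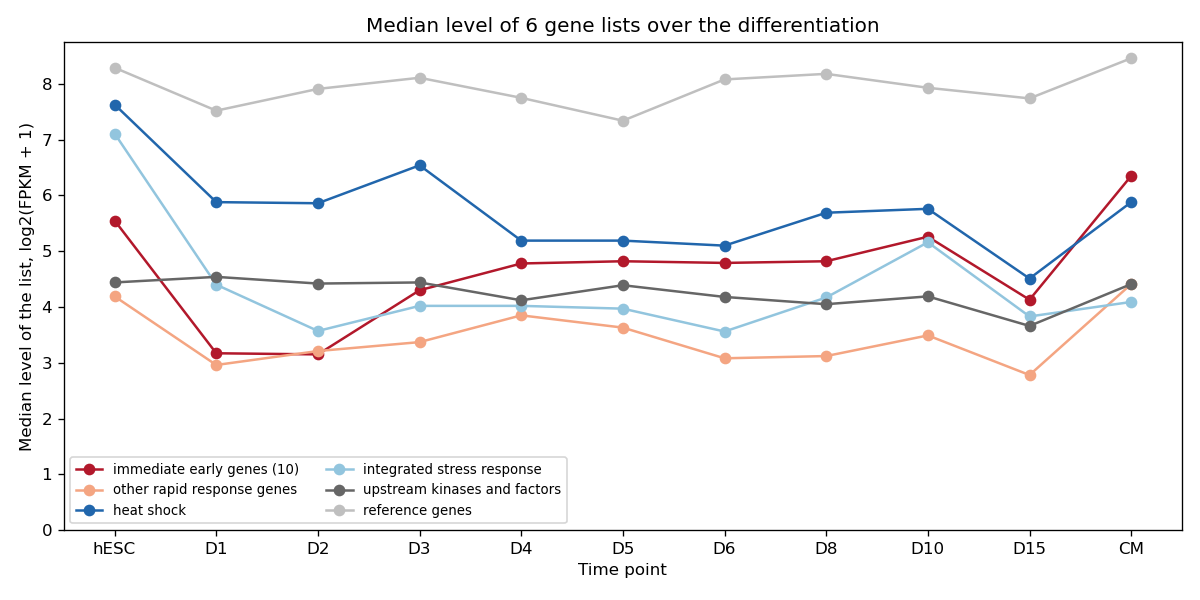
Median level in log2(FPKM + 1) of 6 gene lists (vertical axis) at the 11 time points, with CM for cardiomyocytes of day 31. The line of the 10 immediate early genes runs from 5.55 in hESC to 3.17 at D1 and 6.35 in cardiomyocytes, while that of the integrated stress response ends at 4.09 after 7.11 in hESC and that of the upstream kinases and factors stays between 3.66 and 4.54.

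The 10 genes were not equally alike in shape. Over the 11 time points, which share libraries with all genes measured in them, Pearson's r between pairs of genes on the log2(FPKM + 1) scale ran from 0.192 to 0.955 with a median of 0.727, and 25 of the 45 pairs were over 0.7. FOS with FOSB (0.955), FOSB with EGR1 (0.931) and FOS with EGR1 (0.918) were the most alike, and IER2 with FOSB (0.192) and with FOS (0.228) the least. Without cardiomyocytes the median was 0.622, and without hESC 0.804. NR4A1 (0.957) and JUNB (0.947) followed the mean profile of the other 9 most closely, and IER2 (0.517) and KLF6 (0.591) least. Among 11557 other protein-coding genes of at least 5 FPKM at some time point, those most like the mean profile of the 10 were TULP4 (r 0.971), UBE2H (0.963), BTG2 (0.951), FBXO11 (0.943), ZC3H7A (0.942), KANSL1L (0.930), CYR61 (0.929), ZNF91 (0.929), UTRN (0.926) and TPD52L1 (0.924). BTG2 and CYR61 are themselves rapid response genes. Their ranges were wide (CYR61 8.10 FPKM at D1 and 173 in cardiomyocytes), whereas that of ZC3H7A was narrow (19.1 at D2 to 36.0 in cardiomyocytes). Of these 10, 5 were also among the first 10 without hESC.

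The sorts ask how the same genes differ between mesoderm cells and their counterparts on 1 day, and here the authors' deposited tables give a test. They list a gene only where its q-value, the p-value adjusted for the number of genes tested, is under 0.05, so a gene that is not listed, EGR1 and JUNB in both sorts and NR4A3 at D3, cannot be read as equal. From the ratio of q to p by rank, about 16221 genes were tested at D3 and 11786 at D4. Whether a population's 2 libraries are separate cultures is not stated, so these p-values may measure technical spread only.

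In the D3 sort, per the authors' deposited table, 6 of the 7 listed genes were higher in ROR2-positive PMESO cells and 1 was lower. Of all genes listed in the authors' deposited table, 55.2% were higher. As shares of all genes tested, listed or not, 15.8% were listed as higher and 12.8% as lower. FOS stood at 192 FPKM in ROR2-negative and 295 in ROR2-positive cells, a ratio of 1.54 with a q-value of 0.00102 in the authors' deposited table. FOSB stood at 7.71 and 21.5 (ratio 2.78) in the authors' deposited table, the largest of the 7, and JUN at 26.1 and 47.9 (ratio 1.84), both with a q-value of 0.000375. NR4A1 (15.1 and 35.9, ratio 2.37) and KLF6 (15.5 and 35.6, ratio 2.30) had that same q-value in the authors' deposited table, the smallest it holds. DUSP1 had the smallest increase there (29.6 and 38.5, ratio 1.30, q-value 0.00424). IER2 alone was lower in the authors' deposited table, at 29.7 FPKM in ROR2-negative and 22.1 in ROR2-positive cells (ratio 0.745, q-value 0.00986). The median log2 fold change was 0.88 over the 7 genes and 0.46 over all listed genes of the authors' deposited table.

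The D4 sort divided ROR2-positive cells by PDGFRa and showed the same directions. Per the authors' deposited table, 7 of the 8 listed genes were higher in PDGFRa-positive CMESO cells and 1 was lower. Of all genes listed in the authors' deposited table, 47.5% were higher. As shares of all genes tested, listed or not, 19.4% were listed as higher and 21.5% as lower. JUN led with 32.3 FPKM in PDGFRa-negative and 87.7 in PDGFRa-positive cells (ratio 2.71), followed by FOSB with 20.7 and 52.2 (ratio 2.52), per the authors' deposited table. NR4A3, low in both populations, stood at 0.589 and 1.44 FPKM (ratio 2.44) and FOS at 165 and 333 (ratio 2.01) in the authors' deposited table. NR4A1 (20.4 and 35.8, ratio 1.75), KLF6 (26.7 and 42.5, ratio 1.59) and DUSP1 (34.0 and 49.3, ratio 1.45) followed. These 7 share the q-value 0.000269, the smallest the authors' deposited table holds. IER2 was again lower in the authors' deposited table (27.6 and 20.4, ratio 0.738, q-value 0.00636). The median log2 fold change was 0.91 over the 8 genes and -0.37 over all genes of the authors' deposited table. In its hg19 coordinates FOS lies at chr14:75745477-75748933 and JUN at chr1:59246465-59249785, while the locus given for FOSB spans 99195 bases.

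**Figure D4:**
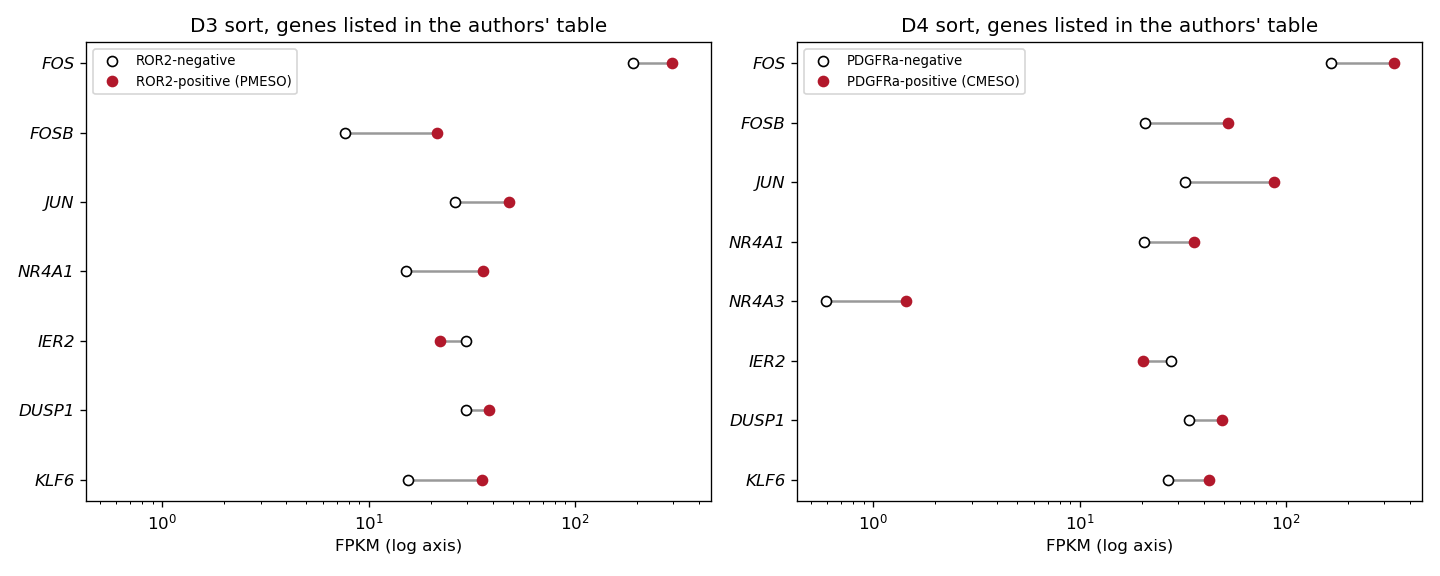
FPKM (log axis) of the immediate early genes listed in the authors' D3 table (left, 7 genes) and D4 table (right, 8 genes), open circles for the negative and filled circles for the positive population, each the authors' single value for the population. Filled circles lie to the right for every gene but IER2, which stands at 22.1 against 29.7 FPKM at D3 and at 20.4 against 27.6 at D4.

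All 7 genes listed at D3 were listed at D4 too, which is 87.5% of the 8 listed there, with the same direction in each. For all genes, 46.5% of the D3 list and 44.8% of the D4 list were shared, and 75.2% of the shared genes had 1 direction. A further demand of a 2-fold difference in log2(FPKM + 1) left 3 genes higher in each sort and none lower: FOSB, NR4A1 and KLF6 at D3, and FOS, FOSB and JUN at D4. By the fold change in the authors' deposited table itself, without a pseudocount, NR4A3 at D4 (ratio 2.44) passed 2-fold as well. Other rapid response genes were listed for 25 of 39 at D3, with 16 higher and 9 lower in PMESO cells, and for 23 of 39 at D4, with 19 higher and 4 lower in CMESO cells. In the authors' deposited table, ATF3 stood at 10.9 and 50.3 FPKM at D4, PHLDA1 at 3.87 and 17.2 and FOSL2, another FOS relative, at 3.40 and 12.6. In the authors' deposited table of D3, DUSP5 stood at 9.65 and 34.4 and MYC at 4.22 and 13.8, while FOSL1 (3.29 and 0.777) and ARC (1.66 and 0.565) were lower there. Of 10 heat shock genes 5 were listed at D3, all lower in PMESO cells, against 12.8% of all genes tested. At D4, 2 of the 10 were listed, both higher in CMESO cells, near the 19.4% of all genes tested.

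The populations of each sort differ in cell type, which was their purpose. Of 5 pluripotency markers all 5 were lower in PMESO cells and 4 of 5 in CMESO cells, and of 6 cardiac mesoderm markers all 6 were higher at D3, and 4 higher and 1 lower at D4. These 6 include ROR2 and PDGFRA, so the direction of ROR2 at D3 and of PDGFRA at D4 was fixed by the sorting. Of 5 endoderm markers 3 were listed at D3, all higher, and 4 at D4, with 2 higher and 2 lower. The part of these cell types in the levels of the immediate early genes was not tested. Beside the sorted cells, the unsorted cells of the same day, whose table was normalised separately, had 119 FPKM of FOS at D3 and 191 at D4, 13.6 and 35.1 of JUN, 8.09 and 20.1 of FOSB, and 13.4 and 13.8 of KLF6. No comparison is drawn between these tables.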

How the data were processed

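RNA of 30 libraries in 15 groups was measured, and groups were read from the sample titles. Of the 3 deposited tables, that of the time course has the authors' FPKM, 1 value for each gene and time point. Its header gives no unit, which was inferred from the tools listed in the submitters' processing notes (TopHat2 2.0.8b, Bowtie2 2.1.0.0, Cufflinks, build hg19) and from the values. For annotation and strand setting the sources used here name nothing. Per the file headers, both sort tables hold FPKM values of the 2 populations, the authors' log2 fold change, linear ratio, test statistic (a score), p-value and q-value.

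From the time course, 4 rows with repeated names were left out. Computed here with pandas 2.3.3 were log2(FPKM + 1) differences, counts at a difference of 1 or more among genes with at least 1 FPKM in 1 column (21711), medians and correlations. The 2-fold rule was tested on simulated data. Planned limma tests per library need separate library columns and were replaced by values without a test. Gene types and exon overlap came from GENCODE 29, another build, so none of its coordinates is given. The genes, 22 further lists and rules were chosen with earlier results of these data known. Named genes of a list are among the 4 with the largest difference in the comparison described or relate to the 10 genes.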

Additional observations from a re-analysis of the deposited data

How the results depend on the processing

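Every count of 2-fold genes between neighbouring time points and between the ends (22 counts, higher and lower) stayed within 1.5 times its value after rescaling by protein-coding genes, without the filter on low values and with the filter at 5 FPKM. With a pseudocount of 5 in place of 1 FPKM, 3 genes in place of 5 were 2-fold higher at D4 than at D3, and 0 in place of 2 were lower at D6 than at D5. The same setting left 4 in place of 6 higher at D3 than at D2, without FOSB and DUSP1. It also left 8 in place of 9 lower at D1 than in hESC. With a pseudocount of 0.1, 1 gene in place of 0 was higher at D5 than at D4, and 1 in place of 0 at D10 than at D8. That setting also gave 10 in place of 9 lower at D1 than in hESC, and 5 in place of 4 lower at D15 than at D10. A pseudocount weighs most on low genes such as NR4A3. FOSB, whose differences lay near 2-fold, also fell under it with a pseudocount of 5. It went from 1.22 to 0.94 at D4 and from -1.13 to -0.95 at D6. In the sorts a further demand of 2-fold in log2(FPKM + 1) left 3 genes higher and 0 lower at D3 and 3 higher and 0 lower at D4, where the pseudocount alone keeps out NR4A3, and a q-value under 0.01 left the counts as they were. The sign of 2 of 120 gene differences turned, both after rescaling (JUNB from D6 to D8, -0.01 to 0.03, and NR4A1 from D1 to D2, -0.03 to 0.02). No paired analysis was possible because each column holds 1 value for both libraries of a group, and for the same reason leaving out a replicate was not run.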

Other observations

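Relatives of the 10 genes gave further values. Of 10 dual specificity phosphatases of MAP kinases, DUSP1 included, 7 were listed at D3, all higher in PMESO cells, and 7 at D4, with 5 higher and 2 lower in CMESO cells, per the authors' deposited table. Of all genes tested, 15.8% were listed as higher at D3, and 19.4% as higher and 21.5% as lower at D4. DUSP2, DUSP4, DUSP5 and DUSP6 are also counted among the other rapid response genes. DUSP6, a phosphatase specific for ERK, stood at 16.3 FPKM in hESC, 78.1 at D4, 152 at D6, 19.4 at D15 and 22.1 in cardiomyocytes, highest in the middle of the course. Of 14 KLF genes, 3 were 2-fold lower and 2 higher at D1 than in hESC, against 11.1% lower and 12.0% higher among all background genes, with KLF9 lower (-3.14) and KLF5 higher (1.64). KLF2 was 2-fold higher in cardiomyocytes than in hESC (2.62). Among 10 factors that bind or remove AU-rich messenger RNAs, ZFP36 stood at 17.2 FPKM in hESC, 1.47 at D1 and 28.0 in cardiomyocytes, and ZFP36L1 at 61.7, 18.3 and 186. Of the 10, 3 (ZFP36, ZFP36L1 and ZFP36L2) were 2-fold higher in cardiomyocytes than at D15 and 0 lower, against 7.23% and 4.07% of the background. All 3 are also counted among the other rapid response genes, and the low D15 column was not rescaled here. A list of genes linked as targets to AP-1, EGR or NR4A factors did not share the low at D15. Of 12 measured, 5 were 2-fold higher and 1 lower at D15 than at D10, against 6.32% and 9.51% of the background. TIMP1 was 1.65 higher in log2(FPKM + 1). The summed stromal markers also went from 864 to 3059 FPKM at this step, and their part in these values was not tested.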
